A study of Mus musculus with 10 samples.

Results

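The pancreas secretes its protein-digesting enzymes as inactive precursors, and 9 of their genes are described here: the elastase genes Cela1, Cela2a, Cela3a and Cela3b, the chymotrypsin genes Ctrb1, Ctrc and Ctrl, and the carboxypeptidase genes Cpa1 and Cpb1. They were picked by symbol, with earlier results of these data known. All 9 of 9 were found among the 12160 genes of the expression table. Gene expression was measured by RNA sequencing of small pools of sorted cells from the pancreas of mice with chronic pancreatitis brought on by caerulein, a peptide that acts like the hormone cholecystokinin and overstimulates acinar cells. There were 5 libraries of tuft cells, sorted as Cd45-neg; EpCAM+; Siglec F+, and 5 of non-tuft epithelial cells, sorted as Cd45-neg; EpCAM+; Siglec F-neg, and each library held 100 cells. Both groups came from male CD1 mice given 4 cycles of caerulein at 250 µg/kg, with no untreated group and no genetic change, although the strain field of the sample records reads Mixed. Each library was made from 1 animal and both cell types were sorted from 5 mice, so the groups share their animals, but which tuft and non-tuft libraries came from the same mouse is not stated in the labels. Soybean trypsin inhibitor was present while the tissue was digested.

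Acinar cells make these enzymes in great excess over all other proteins and store them in zymogen granules, from which cholecystokinin releases them into the duct. Elastases and chymotrypsins are serine proteases that cut inside a protein chain, and carboxypeptidases hold a zinc ion and remove residues from its end. All are switched on in the gut by trypsin, and their activation inside the gland is a hallmark of pancreatitis. Tuft cells are chemosensory epithelial cells of the gut and airways, are rare or absent in the healthy mouse pancreas and are not known as a source of digestive enzymes. The non-tuft gate takes all other EpCAM+ cells, which can be acinar, ductal or islet cells, and its libraries are therefore mixtures.

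Values are read as log2(RPKM + 1) after quantile normalization. RPKM is the read number of a gene divided by the length of its transcript and by the size of the library. Levels of different genes are thus compared per length. Quantile normalization replaces each value by the one that belongs to its rank, and a gene at the same rank in several libraries has the same value in them. A log2 fold change is the tuft mean minus the non-tuft mean, and a gene was called at an adjusted p under 0.05 from limma's moderated test over all 12160 genes and a fold change over 4. The added 1 makes fold changes of low genes too small. The table holds no read counts, so the depth of a library is unknown and a value of 0 sets no limit on expression. All 16 listed tuft marker genes were called higher in the sorted tuft cells, against 4.32% of all genes. They made up 0.848 to 2.35% of the summed linear values (2 to the log2 value, minus 1) of a tuft library. Their share of a non-tuft library was 2.92e-04 to 0.106%. The list was chosen with earlier results of these data known, and the authors had removed genes of low variance. The count is therefore not an independent check of the sort.

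The 9 genes lie on 5 chromosomes of the mm9 assembly (NCBIM37), and 4 of them lie on chromosome 4. There Cela3a (chr4:136957469-136965706) and Cela3b (chr4:136976914-136986455) are neighbours with 11207 bases between them, and Cela2a (chr4:141370877-141382075) and Ctrc (chr4:141394154-141402274) are neighbours with 12078 bases between them, all on the minus strand. Cela1 (chr15:100504856-100518351), Ctrb1 (chr8:114210410-114214910), Ctrl (chr8:108455894-108457762) and Cpb1 (chr3:20148163-20174655) are also on the minus strand. Cpa1 (chr6:30589218-30595363) is on the plus strand. The elastase genes have 8 exons each, the chymotrypsin genes 7 to 9, Cpa1 10 and Cpb1 11. Ctrc is annotated as protein-coding in GENCODE on this assembly and as a transcribed pseudogene in RefSeq on GRCm38.p6.

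Cela3a and Cela3b are near copies, and this limits what their single values can say. Their coding sequences are identical at 759 of 810 aligned bases (93.7%), with an identical run of 145 bases, whereas the other pairs within a family share 56.3 to 62.9%. The reads were 50 bases long, and 291 of the 909 windows of 50 bases in the Cela3a transcript (32.0%) also occur in Cela3b. No other pair of the 9 genes shares such a window. Windows were matched on both strands. In Cela2a, 46 of 1021 windows (4.51%) occur in Casp9, which encodes an apoptotic caspase, on a strand that was not recorded. The first 60 coding bases, which both genes share, and the stretch at coding bases 220 to 279 where they differ most are shown to let the reader see where a short read can and cannot tell them apart. Capitals mark the 10 bases that differ in this stretch.
Both genes, bases 1 to 60: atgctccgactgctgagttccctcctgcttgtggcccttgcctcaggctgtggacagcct
Cela3a, bases 220 to 279: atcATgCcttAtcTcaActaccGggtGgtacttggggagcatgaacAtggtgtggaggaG
Cela3b, bases 220 to 279: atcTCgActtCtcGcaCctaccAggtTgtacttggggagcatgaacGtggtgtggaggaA

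In non-tuft epithelial cells, the genes were among the most abundant transcripts of the library. Ctrb1, one of the main chymotrypsinogens of the mouse, had the highest or next highest value of all 12160 genes in every non-tuft library. Cela2a ranked between place 4 and place 9, and Cela1, Cela3b, Ctrc, Ctrl, Cpa1 and Cpb1 ranked between place 9 and place 43. Cela3a was the exception, with values in 3 non-tuft libraries and 0 in the other two. The 9 genes together held 13.97%, 15.3%, 10.8%, 14.1% and 15.8% of the summed linear values in non-tuft libraries 1 to 5. Ctrb1 alone accounted for 6.78 to 9.21%, a range that follows from its rank of 1 or 2 in quantile-normalized libraries.

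In tuft cells, the same genes held 4.33%, 3.10%, 1.29%, 11.6% and 0.114% of the summed linear values in libraries 1 to 5. Tuft library 4 lay within the range of the non-tuft libraries, and the other 4 lay below it. In tuft library 4, Ctrb1 alone held 9.21% and had the highest value of all genes. The tuft libraries thus covered a far wider range than the non-tuft libraries, with an SD of 4.52 percentage points against 1.95. A library was made from 100 cells, and fewer cells of a type cannot be told apart from less RNA per cell in such a pool.

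**Figure D1:**
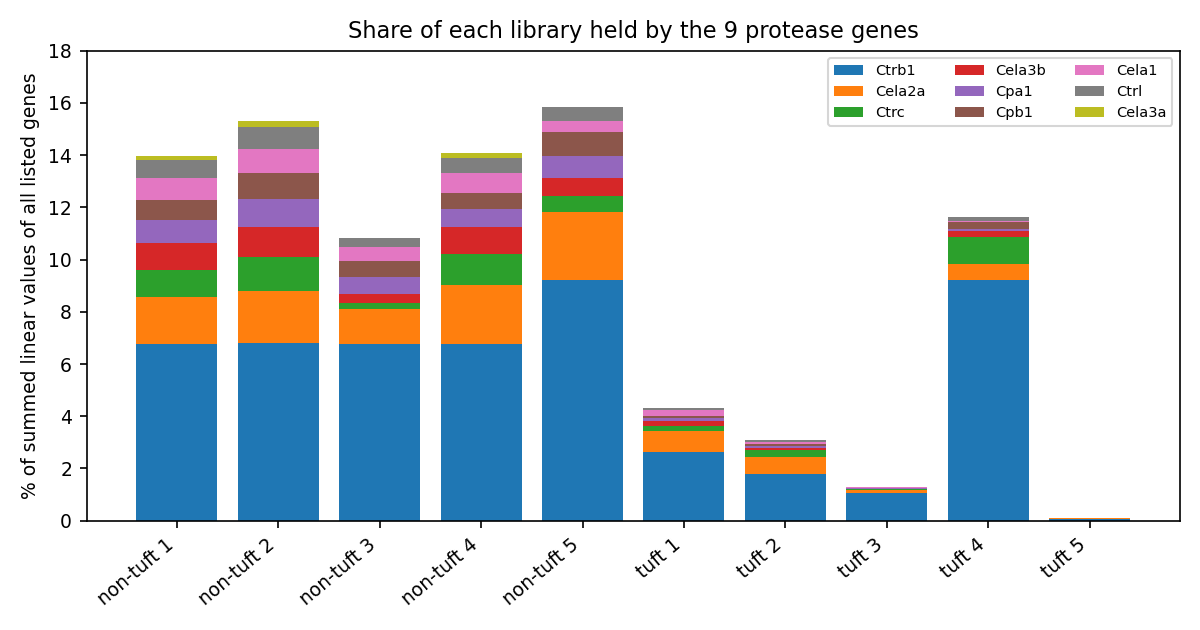
Percent of the summed linear values of all listed genes (vertical axis) held by the 9 protease genes in each of the 10 libraries, with 1 coloured segment per gene and no error bars, since each bar is 1 library. The non-tuft libraries reach 10.8 to 15.8%, tuft libraries 1, 2 and 3 reach 4.33, 3.10 and 1.29%, tuft library 4 reaches 11.6% and tuft library 5 reaches 0.114%.

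Tuft cells had lower levels than non-tuft epithelial cells for 6 of the 9 genes and higher levels for 0 of them by this rule, where 3.99% of all genes were called lower and 4.32% higher. The 6 were Cela1, Cela2a, Cela3b, Ctrl, Cpa1 and Cpb1. The same 6 genes had every tuft library below every non-tuft library, as did 5.12% of all genes. Ctrb1, Ctrc and Cela3a were not called. All 9 had an unadjusted p under 0.05 and a lower mean in tuft cells, against 12.2% of all genes. The median log2 fold change of the 9 genes was -4.09, compared with 0.02 over all genes, and it was also -4.09 without Cela3a, which has no measurable fold change.

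**Figure D2:**
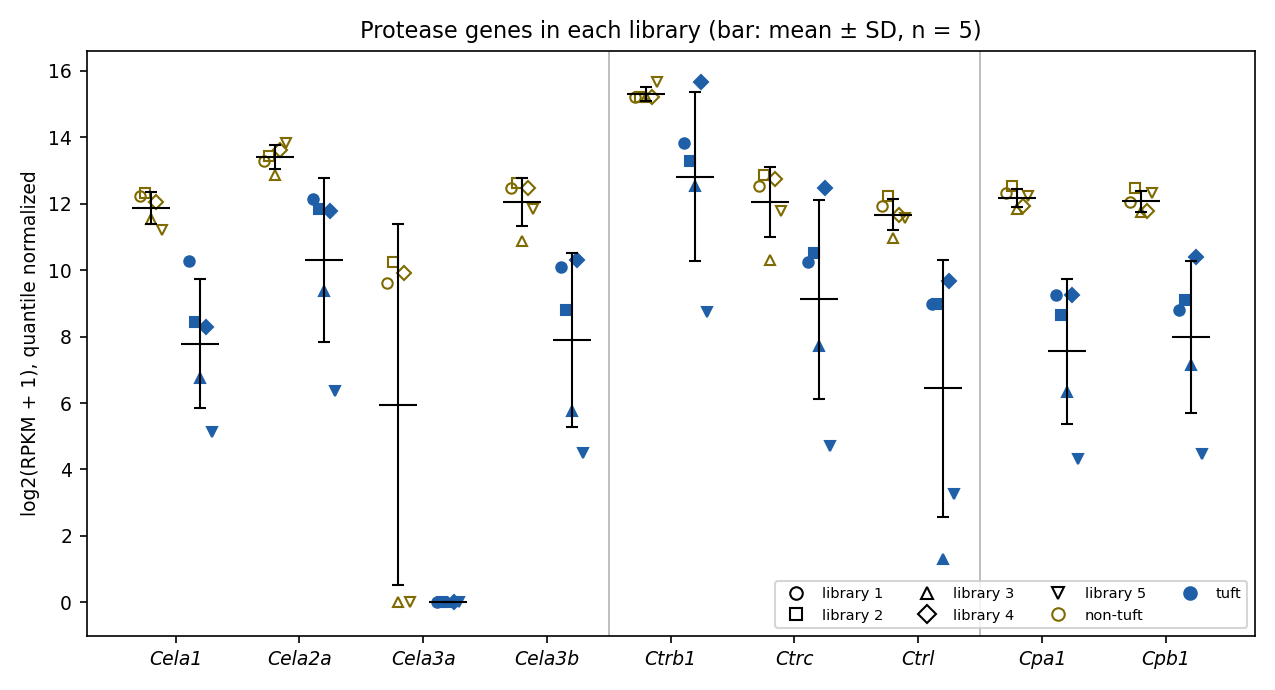
Values of the 9 genes in each library on the log2(RPKM + 1) scale after quantile normalization (vertical axis), with open symbols for non-tuft and filled symbols for tuft libraries, marker shapes for the library number, and bars for the mean ± SD of 5 libraries. Vertical lines part the elastases, chymotrypsins and carboxypeptidases, and every tuft symbol lies below every non-tuft symbol for Cela1, Cela2a, Cela3b, Ctrl, Cpa1 and Cpb1.

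Among the elastases, Cela1, which encodes an elastase that the mouse pancreas makes and the human pancreas does not, was at 12.22, 12.32, 11.53, 12.04 and 11.21 in non-tuft libraries 1 to 5. In tuft libraries 1 to 5 it was at 10.28, 8.44, 6.76, 8.30 and 5.12. All tuft values were below all non-tuft values, with library 1 nearest to them and library 5 farthest. The means were 7.78 ± 1.94 (SD, n = 5) and 11.86 ± 0.47 (SD, n = 5), 17.0-fold lower in tuft cells by a log2 fold change of -4.08 ± 0.77 (standard error, as in the other log2 fold changes given with ±; limma, adjusted p = 0.00376). The exact two-sided permutation test over the libraries gave p = 0.00794, the smallest that 5 against 5 can give, and gave the same p for each of the 6 genes without overlap. This test treats the libraries as independent, although both groups came from the same mice. It and limma's test also take the groups to have a like spread. The SD was larger in the tuft libraries for all of the genes but Cela3a, for example 2.18 against 0.28 for Cpa1. The p-values were not corrected for this.

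Cela2a, the most abundant elastase gene in these cells, was at 13.27, 13.44, 12.86, 13.61 and 13.83 in non-tuft libraries 1 to 5. It was at 12.14, 11.85, 9.38, 11.79 and 6.37 in tuft libraries 1 to 5. Tuft library 1 was the nearest to the non-tuft libraries, 0.72 below the lowest of them, and tuft library 5 the farthest. Its level was 8.56-fold lower in tuft cells (log2 fold change -3.10 ± 0.93; limma, adjusted p = 0.0469). This call was at the edge of the threshold. It held in 3 of the 10 fits that left out 1 library, those without tuft library 1, 2 or 5, and the adjusted p was 0.0524 to 0.121 without any other. It was also lost when the library number entered the fit as a block (adjusted p = 0.0588).

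Cela3b, a paralog of Cela1 and Cela2a, was at 12.46, 12.63, 10.87, 12.46 and 11.85 in the non-tuft libraries. In the tuft libraries it was at 10.08, 8.79, 5.76, 10.31 and 4.50, and library 4 lay 0.56 below the lowest non-tuft value, the narrowest gap of the 6 called genes. It was 17.9-fold lower in tuft cells (log2 fold change -4.16 ± 1.00; limma, adjusted p = 0.0159), and the adjusted p was 0.0517 without tuft library 3. Its near copy Cela3a was at 9.61, 10.24 and 9.91 in non-tuft libraries 1, 2 and 4. Its value was 0 in non-tuft libraries 3 and 5 and in all 5 tuft libraries, including tuft libraries 1 and 4, in which Cela3b exceeded 10. No fold change is given for Cela3a, whose adjusted p was 0.0653 from limma and whose exact permutation p was 0.167. Without non-tuft library 3 or 5, in which it was at 0, the adjusted p was 0.0221 or 0.0208. When the linear values of both genes were summed, an alternative added after the data were seen, the sum had a log2 fold change of -4.30 ± 1.01 (limma, adjusted p = 0.0143).

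Among the chymotrypsins, Ctrb1 was at 15.21 in non-tuft libraries 1 to 4 and at 15.65 in non-tuft library 5, as its rank set it. It was at 13.83, 13.27, 12.53, 15.65 and 8.74 in tuft libraries 1 to 5. Tuft library 4 equalled the highest non-tuft value, and the other tuft libraries were below all of the non-tuft libraries. With a 95% interval of -4.54 to -0.44, the log2 fold change of -2.49 ± 0.95 (limma, adjusted p = 0.118) did not pass the threshold, and the exact permutation test gave p = 0.0476. Without tuft library 4 the log2 fold change was -3.20 with an adjusted p of 0.0399, without tuft library 5 it was -1.47 (adjusted p = 0.151), and no left-out library but tuft library 4 gave a call.

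Ctrc, whose human counterpart encodes chymotrypsin C, a protease that also cleaves trypsinogen and trypsin, was at 12.53, 12.86, 10.31, 12.73 and 11.79 in the non-tuft libraries. In the tuft libraries it was at 10.24, 10.52, 7.73, 12.46 and 4.69. Tuft libraries 2 and 4 were above non-tuft library 3, so the groups overlapped. Its log2 fold change of -2.92 ± 1.16 (limma, adjusted p = 0.132), with a 95% interval of -5.41 to -0.42, did not pass the threshold, and the exact permutation test gave p = 0.0556. The adjusted p was between 0.0532 and 0.266 in every alternative fit, with the lowest value again without tuft library 4, and the log2 fold change ranged from -3.75 without that library to -1.81 without tuft library 5.

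Ctrl, which encodes a chymotrypsin-like protease, was at 11.92, 12.22, 10.97, 11.66 and 11.57 in the non-tuft libraries. In the tuft libraries it was at 8.98, 8.99, 1.31, 9.67 and 3.26, without overlap and with library 3 lowest. Ctrl was 37.4-fold lower in tuft cells (log2 fold change -5.22 ± 1.40; limma, adjusted p = 0.0272), a call that, like that of Cela2a, rested on single libraries. Without tuft library 3, in which Ctrl was near 0, the log2 fold change was -3.94 (adjusted p = 0.0486). Without tuft library 5 it was -4.43 with an adjusted p of 0.0799, and without any 1 of the non-tuft libraries it was 0.0567 to 0.0707. The fall of Ctrl was larger than that of Ctrb1 by 2.73 on the log2 scale (standard error 1.27) and larger than that of Ctrc by 2.31 (standard error 1.01). Each difference had an exact permutation p of 0.00794, or 0.0397 after Benjamini-Hochberg adjustment over the 10 pairs within the 3 families. Ctrb1 exceeded Ctrl by 4.28 to 11.22 in the tuft and by 2.99 to 4.24 in the non-tuft libraries. With rank 1 or 2 in the non-tuft libraries, Ctrb1 was at the ceiling of the quantile-normalized scale, which can narrow its fold change. Ctrc exceeded Ctrl by 1.26 to 6.42 in the tuft libraries and lay between 0.66 below and 1.07 above it in the non-tuft libraries. Without tuft library 3 these differences were 1.52 and 1.38, and with 10 added to each RPKM in place of 1 both adjusted p were 0.0794.

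The carboxypeptidases had the widest gaps between the groups. Cpa1, which encodes carboxypeptidase A1, an enzyme that removes aromatic and aliphatic residues, was at 12.32, 12.53, 11.85, 11.92 and 12.22 in non-tuft libraries 1 to 5. In tuft libraries 1 to 5 it was at 9.25, 8.63, 6.34, 9.25 and 4.31. The highest tuft value was 2.60 below the lowest non-tuft value, against 1.36 for Cpb1 and 1.30 for Ctrl, the next in order. Tuft cells had 24.4-fold less Cpa1 (log2 fold change -4.61 ± 0.83; limma, adjusted p = 0.00294).

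Cpb1, which encodes carboxypeptidase B1, an enzyme that removes lysine and arginine residues, was at 12.04, 12.46, 11.75, 11.79 and 12.32 in the non-tuft libraries. In the tuft libraries it was at 8.81, 9.10, 7.13, 10.39 and 4.46, all of them below the non-tuft values. They had 17.0-fold less Cpb1 (log2 fold change -4.09 ± 0.87; limma, adjusted p = 0.00745). Cela1, Cpa1 and Cpb1 were called lower in all 16 alternative fits. The falls of Cpa1 and Cpb1 differed by -0.52 (standard error 0.28), a difference that did not pass the exact permutation test (p = 0.103, adjusted p = 0.206). The other pairs within a family that hold neither Ctrl nor Cela3a differed by -0.99 to 1.07 on the log2 scale, and no pair without Ctrl had an adjusted p under 0.206 by the same exact test.

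The order of the genes by level was partly shared by the groups. Ctrb1 was above Cela2a in every library, by 1.90 on average in the non-tuft and 2.50 in the tuft libraries. In the non-tuft libraries Cela2a was next, 1.23 above Cpa1 on average and higher in 5 of 5 libraries. Cpa1, Cpb1, Cela3b, Ctrc, Cela1 and Ctrl followed with mean gaps between neighbours of 0.01 to 0.20, none of which had the same sign in all 5 libraries. In the tuft libraries Cela2a and Ctrc did not differ beyond their spread (mean gap 1.18, SD 1.05, Cela2a higher in 4 of 5). Ctrc was above Cpb1 in 5 of 5 tuft libraries, by 1.15 on average. Cpb1, Cela3b, Cela1, Cpa1 and Ctrl were not separated from their neighbours.

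The tuft libraries differed among themselves in the same direction for most of the genes. Leaving Cela3a aside, tuft library 5 was lowest for 7 of 8 genes and tuft library 4 was highest for 5 and tuft library 1 for 2, with Cpa1 equal in both. In the non-tuft libraries, library 2 was highest for 6 of 8 genes and library 3 lowest for 6. Ctrb1 was equally low in non-tuft libraries 1 to 4. Without tuft library 5 the median log2 fold change of the 9 genes was -3.32, and without tuft library 1 it was -4.71, the ends of the range over the 10 libraries left out in turn. Among the called genes other than Ctrl, leaving out tuft library 5 gave the smallest log2 fold changes, which were -3.42 for Cela1, -2.11 for Cela2a, -3.32 for Cela3b, -3.80 for Cpa1 and -3.21 for Cpb1, and all 5 were still called lower. Tuft library 5 also held the fibroblast genes Dcn at 6.84, Lum at 6.19 and Col3a1 at 5.10, which were at 0 in the other 4 tuft libraries, and their part in its low protease values was not tested. Non-tuft library 5 held the same genes at 8.34, 6.84 and 7.26. Expressed as a percent of the mean linear value of the non-tuft libraries, the median of the 8 genes was 23.8% in tuft library 1, 13.8% in library 2, 2.97% in library 3, 29.1% in library 4 and 0.489% in library 5. Within a library the genes were not reduced alike. In tuft library 4, Ctrb1 was at 127% and Ctrc at 113% of the non-tuft mean whereas Cela1 was at 8.09% and Cpa1 at 13.0%, a span of 15.7-fold. Ctrb1 had the top rank in that library and rank 1 or 2 in the non-tuft libraries, so its percent was set by those ranks. In tuft libraries 1 and 2 the span was 3.96-fold and 3.92-fold, with Cela2a the highest in both, and in tuft library 5 it was 4.15-fold. In tuft library 3 Ctrb1 was at 14.6% and Ctrl at 0.0439%.

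**Figure D3:**
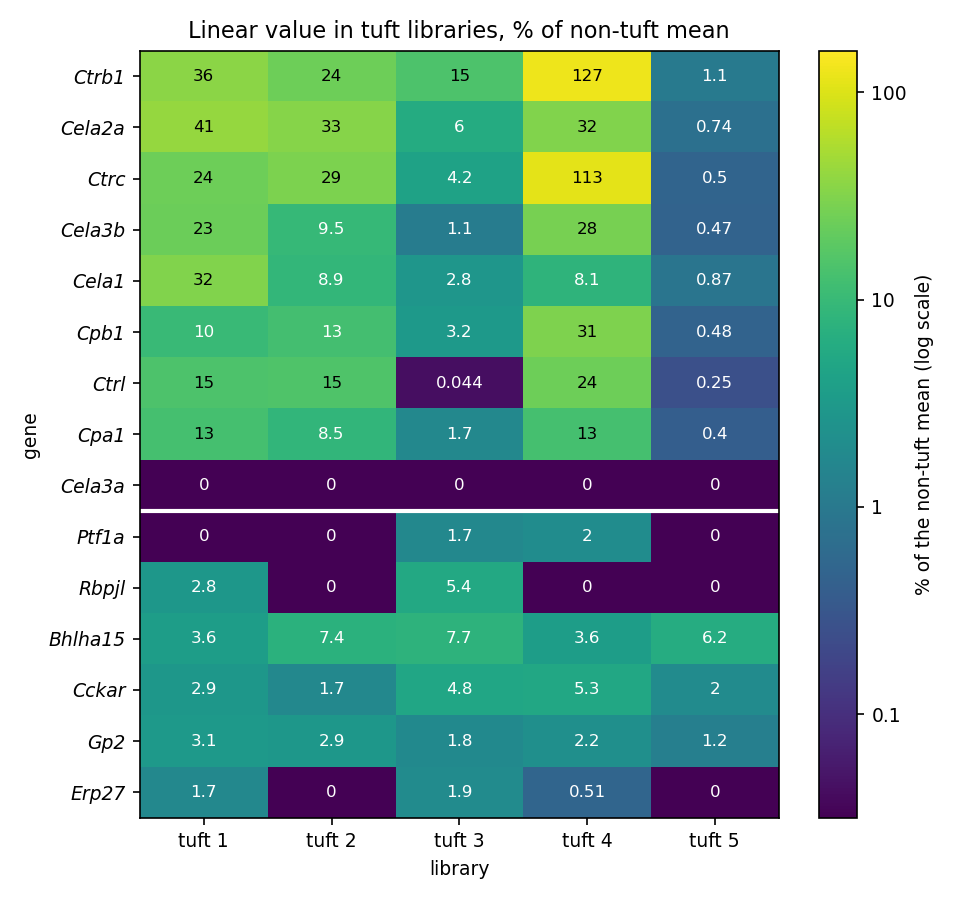
Linear value of each gene in each tuft library as a percent of its mean over the 5 non-tuft libraries, printed in each cell and coloured on a log scale, with genes as rows and tuft libraries as columns. Values of 0 take the darkest colour, and the white line parts the 9 protease genes from 6 acinar genes. These 6 had the smallest p of their lists in these data. Ctrb1 and Ctrc in tuft library 4 are the only cells above 100.

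After each value was taken as its deviation from the mean of its group, 8 of the 9 genes followed the mean of the others over the 10 libraries, with Pearson's r from 0.80 for Ctrl to 0.97 for Cela3b. Cela3a had an r of 0.12. Another 6095 genes, those above the lowest value of every library, were ranked by r with the mean of the 9 genes. The 5 most alike were Sycn (0.98), the trypsinogen genes Try4 (0.97) and Try5 (0.95), Cstb (0.95) and Mapk9 (0.95). Sycn encodes syncollin of the zymogen granule, Cstb cystatin B, an inhibitor of cysteine proteases, and Mapk9 a stress-activated kinase. Close behind were acinar genes such as Prss2 (0.95) and also the ribosomal protein genes Rps27a (0.95) and Rpl22 (0.94), named after their values were seen. How these r compare with those of all ranked genes is not given. These correlations are descriptions over 10 libraries that were normalized together, with the spread mostly set by the 5 tuft libraries.

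Other parts of the acinar programme were lower in tuft cells as well. Of 14 listed genes for other exocrine enzymes and colipase, 12 were called lower and 0 higher, with a median log2 fold change of -4.59. Amy2a2, Amy2a3 and Amy1, near copies that encode amylase, had the smallest p, with log2 fold changes of -4.81, -4.54 and -6.01 (adjusted p = 3.00e-05, 1.08e-04 and 1.37e-04 from limma). Of 11 listed trypsinogen genes, which encode the protease that activates the others, 8 were called lower and 0 higher, with a median of -3.94. Prss1, Try5 and Gm10334 had the smallest p (adjusted p = 0.00680, 0.00906 and 0.0115 from limma), and reads of these close copies may be shared between them. Only 1 of the 11, Try10, had every tuft library below every non-tuft library, against 6 of the 9 protease genes. Prss3 and Gm5771, both called lower, were at 12.53 and 12.63 in tuft library 4, above all of their non-tuft values.

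Of 12 listed acinar transcription factor genes, 4 were called lower and 0 higher, with a median of -1.10. Ptf1a and Rbpjl, which encode subunits of the complex that drives the protease genes in acinar cells, fell by 4.51 and 5.25 on the log2 scale (adjusted p = 1.01e-05 and 2.86e-05 from limma). Bhlha15, which encodes the acinar factor Mist1, fell by 3.79 (adjusted p = 1.78e-04 from limma). Ptf1a was at 0 in tuft libraries 1, 2 and 5 and at 0.53 and 0.62 in tuft libraries 3 and 4, against 4.03 to 5.17 in the non-tuft libraries. Tuft library 4, in which Ctrb1 had the highest value of all genes, thus held 2.01% of the non-tuft mean of Ptf1a and was at 0 for Rbpjl. Of 19 listed genes for the zymogen granule and regulated secretion, 7 were called lower and 1, Itpr2, higher, with a median of 0.33. Cckar, which encodes the cholecystokinin receptor, Gp2, a membrane protein of the granule, and Erp27, a chaperone of the endoplasmic reticulum, fell by 4.73, 5.21 and 7.20 (adjusted p = 1.46e-05, 2.69e-05 and 2.70e-05 from limma). Cckar, Gp2 and Erp27 were named because they had the smallest p of their list, as were Ptf1a, Rbpjl and Bhlha15 of theirs. Low values in the tuft libraries were thus built into that choice, and these genes do not stand for their lists. Linear values of Cckar, Gp2 and Erp27 in the 5 tuft libraries were 0 to 5.30% of the non-tuft mean. The 8 protease genes were at 8.09 to 127% in tuft library 4 and at 0.254 to 1.05% in tuft library 5, where Cckar was at 1.96% and Gp2 at 1.25%.

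Genes that act on these proteases moved less evenly. Of 5 listed genes for zymogen activation and breakdown, 2 were called lower and 0 higher. They were Lamp2, a lysosomal membrane protein gene (log2 fold change -2.26, adjusted p = 0.00101 from limma), and Ctsl, the gene of cathepsin L (-3.53, adjusted p = 0.00802 from limma), while Lgmn, the gene of legumain, was at -0.62 (adjusted p = 0.562). Of 9 listed protease and carboxypeptidase inhibitor genes, 4 were called lower and 1 higher, with a median of -0.16. Serpini2, which encodes pancpin, a serpin of acinar cells, fell by 4.93 (adjusted p = 3.81e-04 from limma). Serpinb1a, which encodes an inhibitor of elastase-like and chymotrypsin-like proteases, rose by 2.33 (adjusted p = 0.00534 from limma), from 6.01 ± 0.92 (SD, n = 5) to 8.34 ± 0.30 (SD, n = 5). Itih4 was listed at 0 in all 5 tuft libraries and at 0.85 to 3.25 in the non-tuft libraries.

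Of the wider families of the 9 enzymes, 12 other carboxypeptidases of family M14 were listed, of which 2 were called lower and 1 higher, with a median log2 fold change of 0.11. Cpm, which encodes a membrane-bound carboxypeptidase, rose by 4.42 on the log2 scale (adjusted p = 9.79e-04 from limma), from 2.76 ± 1.64 (SD, n = 5) to 7.18 ± 0.41 (SD, n = 5). Cpn1, the gene of a plasma carboxypeptidase, fell by 2.68 (adjusted p = 0.0186 from limma). Of 21 listed serine proteases of family S1 outside the 9 genes and the trypsinogens, 8 were called lower and 1 higher, with a median of -0.95. Klk1b4 and Klk1, tissue kallikrein genes, fell by 6.13 and 4.42 and Cfi, the gene of complement factor I, by 3.96 (adjusted p = 3.50e-06, 0.00112 and 6.12e-04 from limma). Cfb, the gene of complement factor B, rose by 3.28 (adjusted p = 0.0286 from limma).

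**Figure D4:**
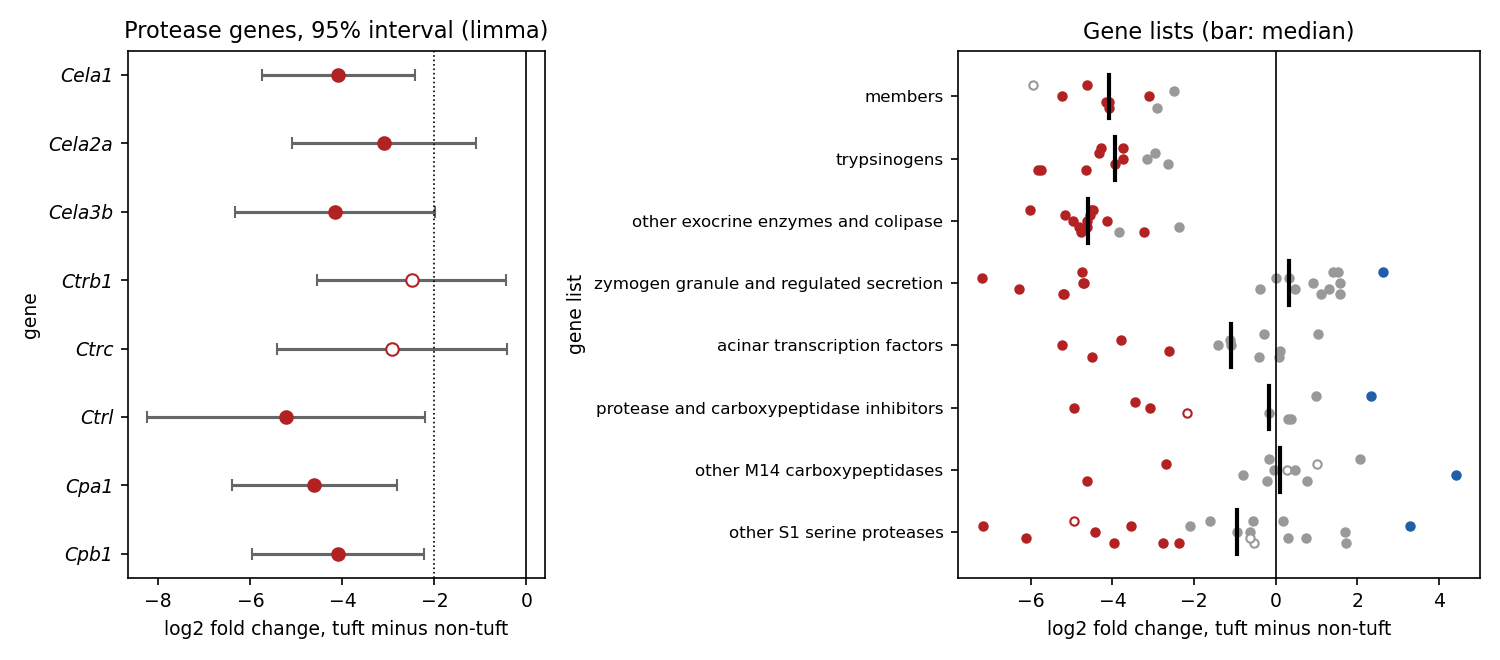
Left, log2 fold changes (horizontal axis, tuft minus non-tuft) with 95% intervals from limma of the 8 genes other than Cela3a, filled where called lower, with a dotted line at a fold of 4. Right, log2 fold changes of the 9 genes and of 7 gene lists, 1 point per gene, red where called lower, blue where called higher and grey otherwise, open where a whole group is at the lowest value and the fitted value depends on the added 1, with a black bar at each median, which is -4.09 for the 9 genes, -4.59 for other exocrine enzymes and 0.11 for other M14 carboxypeptidases.

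Markers of other cells in the gates were measured beside these results, and their part in them was not tested. Of 13 listed ductal markers, 2 were called lower and 3 higher in tuft cells, and they held 1.21 to 5.12% of the summed linear values in tuft and 0.519 to 2.16% in non-tuft libraries. Krt18, Ambp and Tspan8 had the smallest p, with Krt18 and Tspan8 higher and Ambp lower in tuft cells. Krt8 was also called higher and Spp1 lower. Whether the higher Krt18, Krt8 and Tspan8 came from the tuft cells themselves or from ductal cells in the gate was not tested. The share of this list is therefore not a measure of ductal cells in the tuft libraries. Of 15 listed islet markers, 5 were called lower and 0 higher, 4 were at 0 in all tuft libraries, and the list held 0.00447 to 0.0141% in tuft and 0.0263 to 3.98% in non-tuft libraries. Pcsk2, Ttr and Ppy had the smallest p, and the hormone gene Ppy was at 0 in every tuft library. Of 9 mast cell markers, which are relevant because mast cells make carboxypeptidase A3, only Kit and Hdc were listed, and Kit was called higher in tuft cells. The leukocyte list had 8 listed genes with 1 called higher, Ptprc, while C1qa and Cd68 were not called. Ptprc is the gene of Cd45, the surface protein by which cells were excluded from both gates. The fibroblast and endothelial list had 8 with 0 called, among them Pecam1, Pdgfra and Pdgfrb. The leukocyte genes held at most 0.00969% and the fibroblast and endothelial genes at most 0.135% of any library.

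Because the genes moved together, the 250 bases upstream of their start sites were read from RefSeq promoters of GRCm38.p6, which held 8 of the 9 genes and none for Ctrc. The motifs were those known from the complex of Ptf1a, an E-box spelled CACCTG or CAGCTG and the sequence TTTCCC, searched on both strands. CACCTG was present in 6 of the 8 promoters and in 17.1% of 27025 promoters. CAGCTG was present in 3 and in 12.8% of all promoters, and TTTCCC in 5 and in 21.9%. An E-box and TTTCCC together occurred in the promoters of Cela1, Cela2a, Cela3a and Ctrb1 and in 5.86% of all promoters. In Ctrb1 and Cela1 both stand on the same strand with 4 bases between them. This spacing, CANCTGNNNNTTTCCC, was spelled out after those promoters had been read, so its presence in Ctrb1 and Cela1 was set by the choice. It occurs in 8 of 27025 promoters (0.0296%), among them those of Ctrb1, Cela1 and the trypsinogen genes Prss1 and Gm5771. The others were those of Esp18, Gm33102, Gm36876 and Pacc1, which are not among the genes of the expression table. A match is a description of the letters and not of binding, which was not measured.

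The promoters of Ctrb1 and Cela1 are shown for this arrangement, and those of Cela3a and Cela3b because the genes are near copies whose upstream sequences hold 4 and 2 matches to CACCTG. Sequences run 5′ to 3′ on the minus strand and end at the base before the start site, and capitals mark every E-box and TTTCCC match on either strand.
Ctrb1, chr8:111691011-111691260: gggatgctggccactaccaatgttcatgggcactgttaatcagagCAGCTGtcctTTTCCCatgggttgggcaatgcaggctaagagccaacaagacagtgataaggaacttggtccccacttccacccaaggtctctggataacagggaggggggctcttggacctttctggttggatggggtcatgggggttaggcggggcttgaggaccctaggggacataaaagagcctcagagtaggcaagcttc
Cela1, chr15:100687921-100688170: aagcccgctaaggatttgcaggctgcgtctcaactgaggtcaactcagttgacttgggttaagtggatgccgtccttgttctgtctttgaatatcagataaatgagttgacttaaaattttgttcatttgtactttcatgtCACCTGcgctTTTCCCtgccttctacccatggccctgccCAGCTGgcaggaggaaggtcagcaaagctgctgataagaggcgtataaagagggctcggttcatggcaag
Cela3a, chr4:137409792-137410041: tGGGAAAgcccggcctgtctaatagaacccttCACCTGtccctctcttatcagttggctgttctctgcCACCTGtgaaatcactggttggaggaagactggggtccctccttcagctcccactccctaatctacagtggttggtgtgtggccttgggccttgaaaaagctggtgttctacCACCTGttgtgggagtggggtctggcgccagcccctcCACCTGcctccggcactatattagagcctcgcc
Cela3b, chr4:137430521-137430770: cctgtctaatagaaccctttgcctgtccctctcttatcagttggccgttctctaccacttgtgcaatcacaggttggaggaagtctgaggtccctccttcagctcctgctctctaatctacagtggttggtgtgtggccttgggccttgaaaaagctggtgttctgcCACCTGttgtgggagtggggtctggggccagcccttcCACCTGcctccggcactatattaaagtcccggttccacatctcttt
The first base of the E-box stood 205 bases before the start in Ctrb1 and 109 bases before it in Cela1, which also held CAGCTG at 70. In Cela3a the CACCTG matches began 218, 182, 70 and 33 bases before the start, and in Cela3b 83 and 46 bases before it. Of these genes Cela1 and Cela3b were called lower in tuft cells, Ctrb1 was not called, and Cela3a was at 0 in all tuft libraries.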

How the data were processed

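Gene expression was measured with the Smart-Seq2 protocol in 5 tuft and 5 non-tuft epithelial libraries of 100 sorted cells, and samples were grouped by their titles. The authors mapped reads to mm9 with HISAT2, quantified RPKM with StringTie and Ballgown, removed genes of low variance, took log2(RPKM + 1) and quantile normalized the values with preprocessCore. Tool versions are not given in the sources used here. The deposited table holds these log2 values for 12160 genes. It also holds 3 columns of the authors' own comparison (fold change, p-value and false discovery rate), which were not used. No counts were used, so depth is unknown and the number of libraries alone sets the precision.

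The members and gene lists were chosen with earlier results of these data known. The linear model of limma 3.58.1 (R 4.3.3; lmFit, then eBayes) was fitted to all genes, and p-values were adjusted over all of them by Benjamini-Hochberg. Calls needed an adjusted p under 0.05 together with a fold over 4. For single values the exact permutation test (two-sided) went through all splits of 5 against 5 libraries. Differences between members of a family were tested likewise on the gap between the genes in each library. The main limma fit and the permutation tests took no account of the animals that the groups share or of the unequal spread of the groups. The limma fit was tested on simulated data in which all genes had the same spread in both groups and none was held at 0. That test therefore gives no error rate for genes with unequal spread, such as the members. Named genes were all members, the 3 genes of each other list with the smallest p, markers at 0 in a whole group, and the 5 genes most like the members. A gene that this rule selects is not reported here. Other named list genes were named to complete a count after their values were seen. Shares were computed on linear values. Alternatives were 0.1 or 10 added to RPKM, a filter on a mean log2 value of 2, centring on the 79 ribosomal protein genes, replicate number as a block, trend and robust moderation, leaving out each library, other call rules, a share without the 10 highest other genes, and Cela3a and Cela3b summed. Positions came from GENCODE on NCBIM37 (9 of 9 matched, Cela3a as Gm13011) and promoters from RefSeq on GRCm38.p6. Tables, sequences and figures were made with Python 3.11.15, pandas 2.3.3, scipy 1.17.1, biopython 1.88 and matplotlib 3.10.9.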

Additional observations from a re-analysis of the deposited data

Results flagged for a closer look

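Of 19 groups of 5 libraries that were examined for a library standing apart, 1 met Dixon's criterion, and chance flags about 1 in 20 such groups. It was Ctrb1 in the non-tuft libraries, where library 5 was at 15.65 and the other 4 were at 15.21. The difference is that between the highest and the next highest rank of a quantile-normalized library, and the 4 equal values leave no spread among the rest.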

How the results depend on the processing

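Of the 9 genes, 6 were called lower. The count was 4 with 0.1 added to RPKM, 5 with 10 added, 6 with a mean filter, 5 after centring on ribosomal protein genes, 4 with trend and robust settings and 4 to 6 with 1 library left out. It was 3 at an adjusted p under 0.01 and 0 when limma's treat tested the fold against 4, where 6 had an unadjusted p under 0.05 by treat and 9 in the ordinary limma fit. Genes of the other lists called higher fell from 25 to 16 with 10 added. The pairs within a family with an adjusted p under 0.05 were 2, and 0 with 10 added and 0 in each fit with 1 library left out, where 2 pairs at the smallest possible p reach an adjusted p of 0.0794 (0.0529 without tuft library 1, where Cpa1 and Cpb1 join them). The median share of the non-tuft libraries held by the 9 genes was 18.4% in place of 14.1% without the 10 highest other genes of each library. Over all genes, 485 were called lower and 525 higher, against 116 and 162 with 10 added, 292 lower at an adjusted p under 0.01, and 46 and 59 by treat. Centring gave 225 lower and 1278 higher (85.0% of calls higher against 52.0%) and moved the median of all genes from 0.02 to 0.81, and the median of the 9 genes was then -3.30. The cause of these changes was not tested. No fold change of the 9 genes changed sign in any alternative.

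The main fit did not pair the libraries by replicate number. Deviations of same-numbered libraries correlated at 0.06 to 0.24, above 0.1 in 3 of 5 pairs, and those of differently numbered libraries at -0.17 to 0.14. Of the libraries, 3 tuft and 4 non-tuft ones correlated best with their own number. Whether same-numbered libraries share a mouse is not settled by these values. With the replicate number as a block, 5 of the 9 genes were called lower, Cela2a being lost (adjusted p = 0.0588 from limma). Without read counts, no limit can be set for genes listed at 0, and with 5 libraries a group the exact test cannot go below 0.00794.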

Other observations

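Sycn, the gene most like the 9 proteases across the libraries, ordered the tuft libraries as their median did. It was picked by that likeness over these same libraries, so the shared order is not a separate result. Sycn was at 6.90, 5.88, 3.50, 7.78 and 2.18 in tuft libraries 1 to 5 and between 9.09 and 10.52 in the non-tuft libraries. Try4 was at 13.61, 11.79, 9.32, 13.61 and 6.44 in tuft libraries 1 to 5 and between 12.22 and 14.43 in the non-tuft libraries, and it was not called (log2 fold change -2.63, adjusted p = 0.176 from limma). Clps, which encodes colipase, the cofactor of pancreatic lipase, was the only other gene of the exocrine enzyme list besides Pnlip that was not called (limma, log2 fold change -2.37, adjusted p = 0.0988). Like Ctrb1, it was among the top ranks of the non-tuft libraries, at 15.65 in 4 and 15.21 in 1 of them, and at 14.43, 13.83, 13.11, 15.21 and 9.37 in tuft libraries 1 to 5. The values of Clps in the tuft libraries were 45.3%, 29.9%, 18.1%, 77.7% and 1.35% of the non-tuft mean. Clps and Pnlip were named after their values were seen.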
